A study of Mus musculus with 4 samples.

Results

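The glycerol phosphate shuttle and the malate-aspartate shuttle carry reducing equivalents of cytosolic NADH into mitochondria, and their 10 genes were compared between muscle that overexpresses the nuclear receptor PPARbeta and control muscle. The glycerol phosphate shuttle was represented by 3 genes, Gpd1, Gpd1l and Gpd2, and the malate-aspartate shuttle by 7, Mdh1, Mdh2, Got1, Got2, Slc25a11, Slc25a12 and Slc25a13. A gene was measured by the probe sets annotated to its symbol alone, and the probe set that represents it was selected on the highest mean log2 signal over all 4 arrays. Of the 10 genes, 8 had such a probe set, out of 12393 genes measured in all, and they had 16 probe sets together. Gpd1l and Slc25a12 had none and were not analysed here. The genes were chosen with lower signals of Gpd1 and Gpd2 in PPARbeta muscle already known from these arrays, so those differences are descriptions and no independent evidence.

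RNA came from the gastrocnemius, a calf muscle of mostly fast fibres, of mice 6 weeks old. The control group held 2 non-transgenic littermates (NTG), labelled wild-type. The other group held 2 MCK-PPARb mice, in which a transgene named for the muscle creatine kinase promoter overexpresses PPARbeta (gene Ppard) in muscle. Each array, of an Affymetrix type, was taken as 1 mouse, and the number of arrays limits the precision. The titles call the arrays biological replicates. Nothing further in the labels says that each came from a separate mouse, and the p-values measure the spread between these arrays only, which may be technical.

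Both shuttles regenerate cytosolic NAD+ so that glycolysis can go on, since the inner mitochondrial membrane does not let NADH through. In the glycerol phosphate shuttle, a cytosolic dehydrogenase reduces dihydroxyacetone phosphate to glycerol-3-phosphate, and a flavoprotein on the outer face of the inner membrane oxidises it again and hands the electrons to ubiquinone. In the malate-aspartate shuttle, malate dehydrogenases and aspartate aminotransferases on both sides of the membrane work with a carrier that exchanges malate for 2-oxoglutarate and a carrier that exchanges aspartate for glutamate, and the electrons reach complex I as mitochondrial NADH. Fast glycolytic muscle is known for high glycerol phosphate dehydrogenase activity, and heart for its reliance on the malate-aspartate shuttle.

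Ppard rose from 2169 and 2825 on the NTG arrays to 126049 and 98796.5 on the MCK-PPARb arrays, as the labels state. All 7 defining muscle markers, among them Ckm, Acta1 and Myh4, passed the filter. Log2 signals correlated across probe sets at r = 0.946 within NTG, 0.955 within MCK-PPARb and 0.924 to 0.946 between groups. NTG replicate 1 had the brightest top probe sets, with 4.20% of its signal in its 10 brightest probe sets against 2.36% to 2.78% on the other arrays. Probe sets were tested when their mean log2 signal exceeded the median of all, which lies at 444 signal units. This kept 6841 genes, of which 50 (0.731%) passed an adjusted p under 0.05 in limma. Of those, 22 (0.322% of the genes tested) were lower and 28 (0.409%) higher in MCK-PPARb muscle. The 2 arrays of one group lay wholly above or below those of the other for 42.9% of the genes.

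PPARbeta acts on DNA as a partner of the retinoid X receptor, at a direct repeat of the half-site AGGTCA with 1 base between the copies. The start regions of the gene that fell, Gpd2, and of the aminotransferase pair Got1 and Got2 are shown to set them against that site. Of the listed genes, only Got1 and Got2 had a window with the half-site, so their windows do not stand for the malate-aspartate genes. The regions shown are RefSeq windows of assembly GRCm38.p6, from 250 bases before to 50 after an annotated start, and capitals mark each AGGTCA half-site or its complement.
Gpd2, upstream start, chr2:57237428-57237727, plus strand: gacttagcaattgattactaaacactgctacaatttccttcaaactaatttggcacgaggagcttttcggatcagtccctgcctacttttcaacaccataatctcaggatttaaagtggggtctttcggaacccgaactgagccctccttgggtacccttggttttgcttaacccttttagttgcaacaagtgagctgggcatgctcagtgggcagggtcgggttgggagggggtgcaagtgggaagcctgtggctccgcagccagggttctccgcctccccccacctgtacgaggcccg
Gpd2, downstream start, chr2:57238132-57238431, plus strand: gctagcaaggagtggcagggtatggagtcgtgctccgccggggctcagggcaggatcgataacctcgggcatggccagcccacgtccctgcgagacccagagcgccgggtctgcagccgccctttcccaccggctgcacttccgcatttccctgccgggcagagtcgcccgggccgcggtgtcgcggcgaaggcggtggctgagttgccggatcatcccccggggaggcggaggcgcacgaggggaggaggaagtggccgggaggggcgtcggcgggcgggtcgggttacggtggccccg
Got1, chr19:43524556-43524855, minus strand: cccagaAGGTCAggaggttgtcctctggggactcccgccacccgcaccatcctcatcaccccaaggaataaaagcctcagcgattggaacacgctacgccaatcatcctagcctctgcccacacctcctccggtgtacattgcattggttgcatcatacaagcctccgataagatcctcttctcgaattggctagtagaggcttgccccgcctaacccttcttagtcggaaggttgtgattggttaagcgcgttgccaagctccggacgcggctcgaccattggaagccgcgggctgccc
Got2, chr8:95888352-95888651, minus strand: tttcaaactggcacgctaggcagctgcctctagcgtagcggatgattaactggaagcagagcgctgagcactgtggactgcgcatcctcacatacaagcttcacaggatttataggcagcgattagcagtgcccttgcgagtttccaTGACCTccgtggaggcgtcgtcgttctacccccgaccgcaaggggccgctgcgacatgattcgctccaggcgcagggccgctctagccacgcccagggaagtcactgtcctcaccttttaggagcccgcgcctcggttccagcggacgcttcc
Neither Gpd2 window holds the half-site, and so both stand in lower case. The half-site begins 244 bases before the start of Got1 and, as its complement, 103 bases before that of Got2. RefSeq windows were found for 9 of the genes, 10 windows in number, and none for Gpd1, so the search does not cover that gene. The half-site was present in 2 of the 10 windows, against 16.3% of all 32851 windows, searched on both strands. The windows of the other listed genes lacked it, as those of Gpd2 did. The full repeat AGGTCANAGGTCA, which contains the half-site, was in none of the 10 and in 13 of all windows (0.0396%). A repeat so rare is unlikely in any 10 windows, so its absence says nothing about these genes. The CCAAT box, searched as CCAAT on both strands, was in 5 of the 10 and in 37.4% of all. A match is a description of these letters and does not show that a receptor binds. The Gpd2 windows differ in composition, with 9 CG dinucleotides and 53.0% G and C at the upstream start and 34 and 72.7% at the downstream start, while the median of all windows was 7 and 52.7%.

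The mitochondrial arm of the glycerol phosphate shuttle fell. Gpd2, the flavoprotein glycerol-3-phosphate dehydrogenase of the inner membrane, read 4692 and 4801 on the NTG arrays against 1057.5 and 983 on the MCK-PPARb arrays. Both MCK-PPARb arrays were low, the groups did not overlap, and the arrays of each group differed from each other by 1.02-fold and 1.08-fold. The log2 difference was -2.22 ± 0.21 (SE, 2 arrays per group; limma, adjusted p = 0.00705; 95% interval -2.71 to -1.72), which left 21.5% of the control level. It was the 1 gene called lower of the 2 tested for this shuttle, where 0.322% of all genes were, and nothing is read from that share because its lower signal was known when the genes were chosen. In whole muscle, fewer cells of a type and less RNA per cell cannot be told apart. It has 1 probe set on the array, so no second probe set bears on the value. With either array of a group left out the difference lay between -2.27 and -2.17, and it passed each time.

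The cytosolic arm was lower as well and did not pass the test over all genes. Gpd1, the NAD-linked glycerol-3-phosphate dehydrogenase of the cytosol, read 17929.6 and 17089.8 on the NTG arrays against 9909.7 and 8326 on the MCK-PPARb arrays. Both MCK-PPARb arrays lay below both NTG arrays. The log2 difference was -0.95 ± 0.18 (SE, 2 arrays per group; limma, adjusted p = 0.0939; 95% interval -1.38 to -0.52), or 51.9% of the control level.

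Gpd1 has 3 more probe sets, and they did not all follow the one of highest mean. The second read 15244 and 5572 on the NTG arrays against 8065 and 2558 on the MCK-PPARb arrays. Replicate 1 was above replicate 2 in both groups, by 2.74-fold in NTG and 3.15-fold in MCK-PPARb, so the groups overlapped although their log2 difference was -1.02 ± 0.60 (adjusted p = 0.609, limma). The third read 1720.0 and 1127 against 1031 and 1304.5, a difference of -0.26 ± 0.30. The fourth lay below the filter on every array, at 53.2 and 63.1 against 182.9 and 97.9, and was not tested. With the mean of the 3 probe sets above the filter, Gpd1 was at -0.74 (adjusted p = 0.375, limma). The size of its difference thus rests on the choice of probe set.

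**Figure D1:**
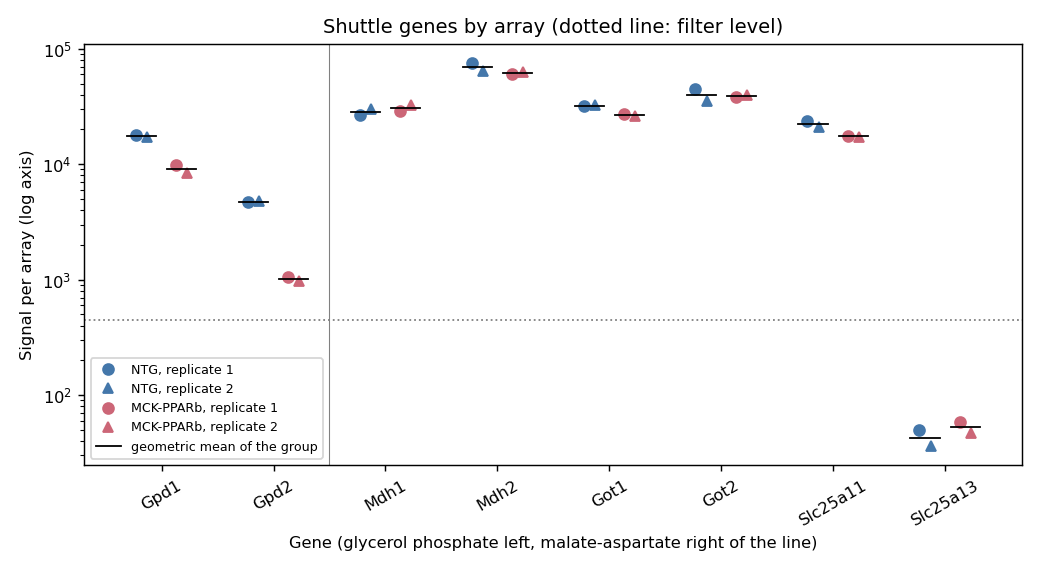
Signal of each shuttle gene on each of the 4 arrays (log axis; circles replicate 1, triangles replicate 2; black bars are geometric means). Gpd2 drops from 4692 and 4801 to 1057.5 and 983, the group means of each malate-aspartate gene above the filter lie close together, and Slc25a13 lies below the dotted filter level of 444.

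None of the malate-aspartate shuttle genes passed. Of the 7, 6 had a probe set and 5 passed the filter. In limma 0 of the 5 passed over all genes, where 0.731% of all genes did, and the unadjusted p was under 0.05 for 0 of them, where 10.9% of all genes did. For 3 of the 5 both MCK-PPARb arrays lay below both NTG arrays, as they did for 20.8% of all genes tested.

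The malate dehydrogenases, which convert malate and oxaloacetate on either side of the membrane, had small differences that did not pass. Mdh1, the cytosolic enzyme, read 26746 and 29846 on the NTG arrays against 28929.5 and 32379 on the MCK-PPARb arrays. The groups overlapped, and the log2 difference was 0.12 ± 0.18 (95% interval -0.31 to 0.54). Its other probe sets above the filter had differences of 0.20 ± 0.19 and 0.55 ± 0.29, with overlapping groups in both. A further probe set below the filter read 96.7 and 68.1 against 630.5 and 52.4. So the difference was above 0 in each of the 3 Mdh1 probe sets that were tested, and it passed in none of them (adjusted p from 0.562 to 0.882, limma). In the probe set below the filter, only MCK-PPARb replicate 1 lay above the NTG arrays. Mdh2, the mitochondrial enzyme of this shuttle and of the citric acid cycle, read 75096 and 64265 on the NTG arrays against 60171 and 62479 on the MCK-PPARb arrays. Both MCK-PPARb arrays were lower, by a log2 difference of -0.18 ± 0.19 (95% interval -0.62 to 0.26). Its second probe set was at -0.12 ± 0.18, also without overlap.

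The aspartate aminotransferases move the amino group between glutamate and aspartate. Got1, the cytosolic form, read 31989 and 32368 on the NTG arrays against 27344 and 26214 on the MCK-PPARb arrays. The groups did not overlap, and the log2 difference was -0.27 ± 0.17 (95% interval -0.67 to 0.14), or 83.2% of the control level. Got2, the mitochondrial form, read 44587 and 35473 on the NTG arrays against 38275 and 39992 on the MCK-PPARb arrays. NTG replicate 1 was high, the MCK-PPARb arrays lay between the NTG arrays, and the difference was -0.024 ± 0.19 (95% interval -0.48 to 0.43). Its sign turned to 0.023 with quantile normalization and to 0.14 without NTG replicate 1. The second Got2 probe set read 23226 and 19529 against 18814 and 17509, a difference of -0.23 ± 0.18 with no overlap. The first and second Got2 probe sets thus differed in whether the groups overlapped. Neither passed, and their 95% intervals, -0.48 to 0.43 and -0.66 to 0.20, shared most of their values.

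The carriers close the cycle. Slc25a11, the carrier that exchanges 2-oxoglutarate for malate, read 23504 and 20887 on the NTG arrays against 17615 and 17358 on the MCK-PPARb arrays. Both MCK-PPARb arrays were below both NTG arrays, and the log2 difference of -0.34 ± 0.18 was the lowest of the 5 genes tested (95% interval -0.75 to 0.070, adjusted p = 0.559 with limma). Slc25a13, which encodes citrin, a calcium-regulated aspartate-glutamate carrier best known from liver, lay below the filter with 50.1 and 36.2 on the NTG arrays against 58.6 and 47.0 on the MCK-PPARb arrays. It was not tested.

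**Figure D2:**
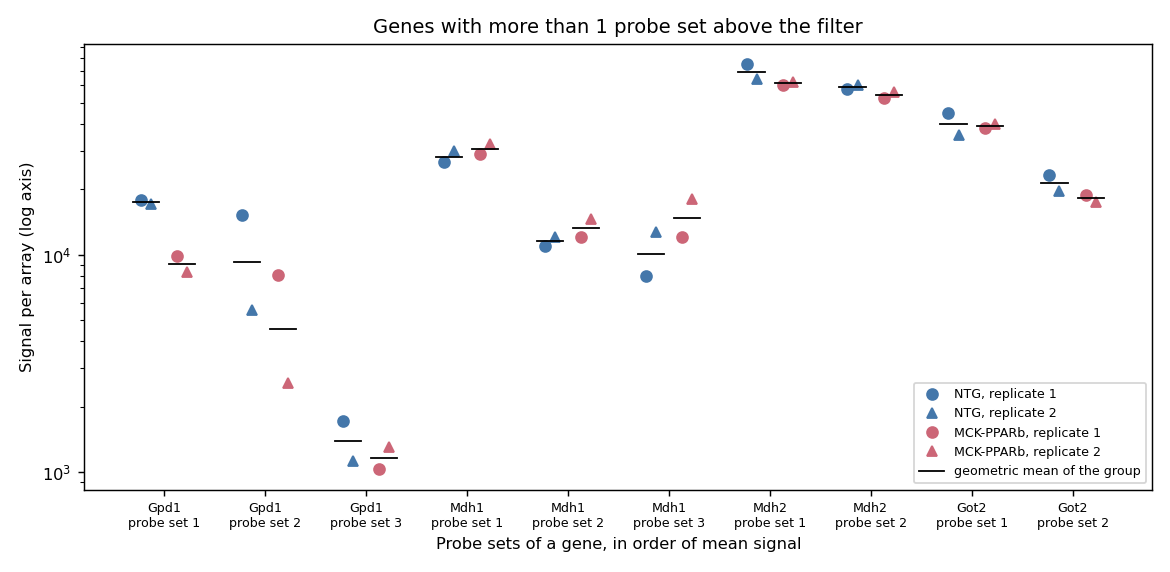
Signals per array (log axis) of every probe set above the filter for the 4 genes that have more than 1, ordered by mean signal. In the second Gpd1 probe set replicate 1 (circles) lies 2.74-fold and 3.15-fold above replicate 2 (triangles), while the first separates the groups; the 3 Mdh1 probe sets all lean upward in MCK-PPARb muscle.

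Set side by side, the shuttles differed in the size of their differences. The 2 tested glycerol phosphate genes lay at -2.22 and -0.95, with a median of -1.58, and the 5 tested malate-aspartate genes lay between -0.34 and 0.12, with a median of -0.18. The median over all genes tested was 0.011. With each gene set to its NTG mean, the glycerol phosphate genes averaged 0.009 and -0.009 on the NTG arrays against -1.49 and -1.67 on the MCK-PPARb arrays, on the log2 scale. The malate-aspartate genes averaged 0.055 and -0.055 on the NTG arrays against -0.159 and -0.119 on the MCK-PPARb arrays. Both MCK-PPARb arrays were therefore lower for each shuttle, and by more for the glycerol phosphate genes. A p is not given for these averages, because the genes were chosen with results known.

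The contrast was sharper for Gpd2 than for Gpd1. The 95% interval of Gpd2 ended at -1.72, and the intervals of the 5 malate-aspartate genes reached down to -0.75 at most. The interval of Gpd1, -1.38 to -0.52, shared values with those of Got1, Mdh2 and Slc25a11. Taken as a ratio within each array, the change of Gpd2 exceeded that of a malate-aspartate gene by 1.88 (against Slc25a11) to 2.33 (against Mdh1) on the log2 scale, and that of Gpd1 by 0.605 to 1.06. These ratios show unequal change and do not show that a malate-aspartate gene stayed the same. An exact permutation test of a single value with 2 arrays against 2 cannot go below p = 0.333, so the call on Gpd2 depends on limma's use of the spread of other genes.

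**Figure D3:**
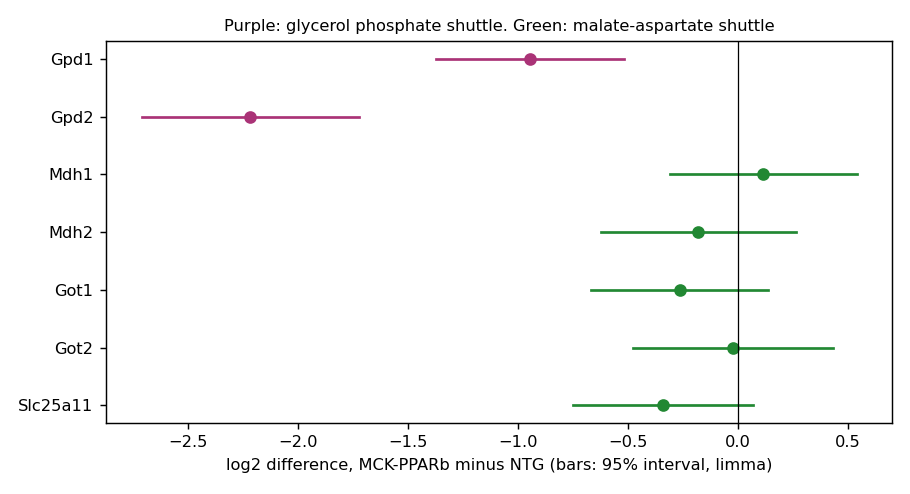
Log2 difference, MCK-PPARb minus NTG, of the 7 tested shuttle genes, with 95% intervals from limma. Gpd2 lies at -2.22 with an interval ending at -1.72, Gpd1 at -0.95, and each malate-aspartate interval contains 0.

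The genes whose 4 log2 signals, centred on their own mean, lay closest to those of Gpd2 were Phkb (distance 0.136), Padi2 (0.151), Prxl2b (0.422), Tmem37 (0.577) and Slc40a1 (0.602), over 4 arrays and 6841 genes. Phkb, the beta subunit of phosphorylase kinase, read 12954 and 14289 on the NTG arrays against 3071 and 3093 on the MCK-PPARb arrays. Padi2, a peptidylarginine deiminase, read 4514 and 4856 against 1112 and 900.1. Closeness to Gpd2 on these signals was the rule of choice, so a likeness to its arrays comes with that rule. The likeness is over the same arrays as the contrast and is a description.

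Other genes of malate, aspartate and glutamate metabolism gave a mixed picture. Of 18 listed genes, 11 were tested, with a median log2 difference of -0.12. Of the 11, 1 rose and 0 fell, where 0.409% and 0.322% of all genes tested did, and 10 did not pass. Gpt, the cytosolic alanine aminotransferase, rose from 1357 and 1036 to 3535 and 3476 (log2 1.56 ± 0.24, adjusted p = 0.0430 with limma). The Gpt probe set has the suffix _s_at, so Gpt had no value in the alternative fit without such probe sets. The call on Gpt was lost without MCK-PPARb replicate 1 (adjusted p = 0.148) and replicate 2 (0.162), and when limma's prior ignored intensity (0.135). Gpt2, the mitochondrial alanine aminotransferase, lay the other way, at 10381 and 8367 on the NTG arrays against 4572 and 4169 on the MCK-PPARb arrays, and did not pass (-1.09 ± 0.20, adjusted p = 0.0825 with limma). Its other 2 probe sets were at -1.13 and -1.18. The probe set that represents Gpt2 also has the suffix _s_at, and without such probe sets Gpt2 was at -1.18 (adjusted p = 0.117, limma). Gpt2 passed without NTG replicate 2 (adjusted p = 0.0360), with median centring (0.0387) and with the filter at the 75th percentile (0.0481). Alanine aminotransferases, like Got1 and Got2, exchange an amino group with glutamate.

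Other enzymes and carriers of the same list did not pass in the fit without a replicate block. Me1, the cytosolic malic enzyme, which turns malate into pyruvate and makes NADPH, read 19328 and 19031 on the NTG arrays against 11242 and 8804 on the MCK-PPARb arrays (-0.95 ± 0.19, adjusted p = 0.107 with limma). Slc25a10, the dicarboxylate carrier, read 357.5 and 529 against 906 and 676, around the filter level (0.85, adjusted p = 0.480). Citrate synthase, Cs, was at -0.24, fumarase, Fh1, at -0.0083, and glutamate dehydrogenase, Glud1, at -0.058.

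On the side of glycerol phosphate, the genes that make lipid from it or take it apart showed no call. Of 12 listed genes, 9 were tested, 0 passed, and limma gave 3 an unadjusted p under 0.05, where 10.9% of all genes had one, with a median of -0.18. Pgp, a phosphatase that can split glycerol-3-phosphate, read 7327 and 7229 on the NTG arrays against 4576 and 4228 on the MCK-PPARb arrays (-0.73 ± 0.18, adjusted p = 0.185). Lpin1, a phosphatidate phosphatase, read 12084 and 12442 against 9264 and 7844.5 (-0.52, adjusted p = 0.348). In these probe sets of Pgp and Lpin1, the MCK-PPARb arrays lay below the NTG arrays. With the mean of its probe sets above the filter, Lpin1 was at -0.32 (adjusted p = 0.528, limma). Agpat3, an acyltransferase of glycerolipid synthesis, and Lipe, hormone-sensitive lipase, lay the other way without overlap, at 0.54 ± 0.20 (adjusted p = 0.382) and 0.76 ± 0.40 (adjusted p = 0.562). Gpam, which starts glycerolipid synthesis from glycerol-3-phosphate, was at 0.11 with overlapping groups (adjusted p = 0.889). Tpi1 and Aldoa, which supply dihydroxyacetone phosphate, were at -0.21 and -0.27, also with overlap.

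Gpd2 shares its electron acceptor, ubiquinone, with several other dehydrogenases. Of the 10 genes listed, among which Coq7 makes ubiquinone instead, 8 were tested, with a median of -0.12. Of the 8, 1 rose and 0 fell, where 0.409% and 0.322% of all genes tested did, and 7 did not pass. Etfdh, which passes electrons of fatty acid oxidation to ubiquinone, rose from 3318.5 and 3894 to 8608 and 8465 (1.25 ± 0.19, adjusted p = 0.0431 with limma). Gpd2 and Etfdh thus lay in opposite directions on the same arrays, without overlap in either. The call on Etfdh was lost without MCK-PPARb replicate 1 (adjusted p = 0.179) and replicate 2 (0.187), when limma's prior ignored intensity (0.198) and with median centring (0.0608). The subunits of succinate dehydrogenase did not pass, with Sdhd at -0.50, Sdha at -0.29, Sdhc at -0.19 and Sdhb at -0.028.

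Lactate dehydrogenase is the other main route by which cytosolic NADH is oxidised. Of 10 listed makers and users of cytosolic NADH and lactate, 7 were tested, 0 passed, and limma gave 3 an unadjusted p under 0.05, where 10.9% of all genes had one, with a median of -0.0083. Ldha, the muscle-type subunit, read 185971.5 and 113408.5 on the NTG arrays against 92372 and 96509 on the MCK-PPARb arrays (-0.62, adjusted p = 0.470), and it was at -0.98 and passed without NTG replicate 2 (adjusted p = 0.0245) but at -0.26 without NTG replicate 1 (adjusted p = 0.576). Ldhb, the heart-type subunit, read 10836.5 and 13036 against 17637 and 23547 (0.78 ± 0.21, adjusted p = 0.232). This Ldhb probe set has the suffix _x_at, and without such probe sets Ldhb was at 0.61 (adjusted p = 0.333, limma). Slc16a3, a lactate exporter, read 32066 and 26138 against 15395 and 13852 (-0.99 ± 0.19, adjusted p = 0.0939), and without NTG replicate 2 it passed (adjusted p = 0.0280). Mpc1, a subunit of the mitochondrial pyruvate carrier, was at -0.0083 with overlap.

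**Figure D4:**
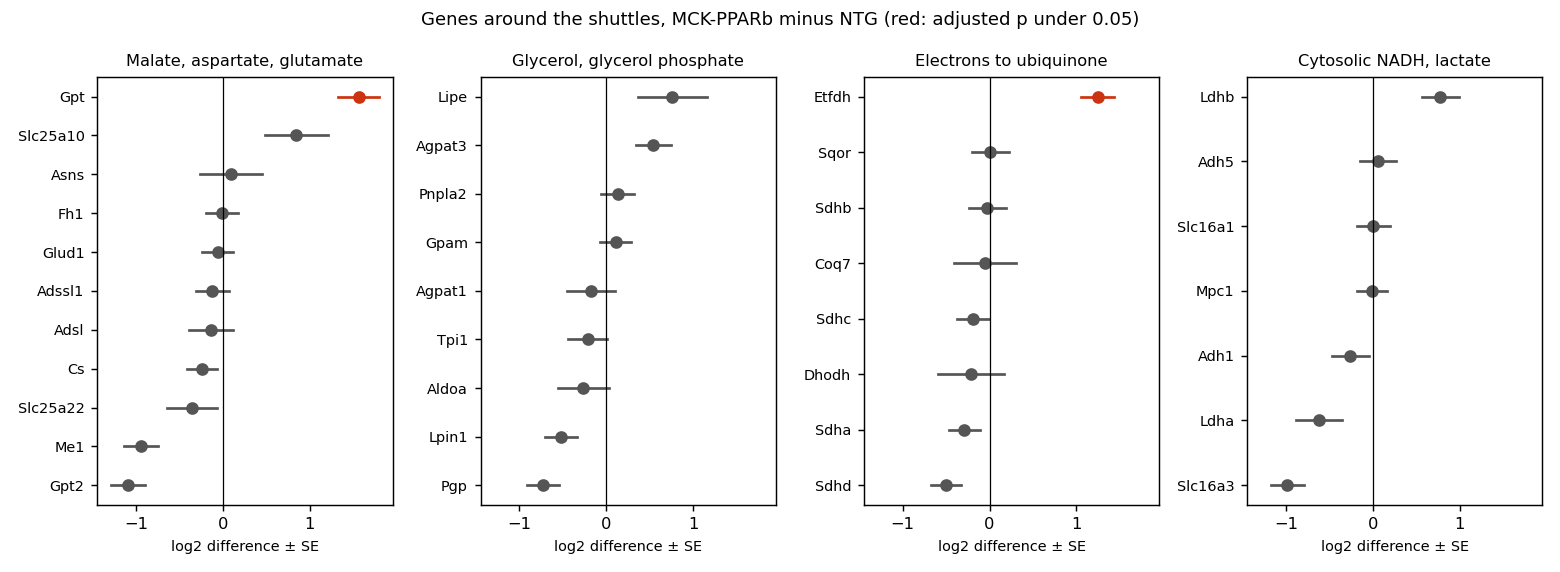
Log2 difference ± SE, MCK-PPARb minus NTG, of the tested genes in 4 lists around the shuttles; red marks an adjusted p under 0.05. Gpt (1.56) and Etfdh (1.25) are the genes in red, and Gpt2 (-1.09), Slc16a3 (-0.99) and Me1 (-0.95) lie lowest without passing.

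Markers of fibre type and of other cells were read on the same arrays. None of them passed the test over all genes, and their part in the shuttle values was not tested. Of 14 fast fibre markers, 0 passed and limma gave 1 an unadjusted p under 0.05, where 10.9% of all genes had one. Their median log2 difference was -0.32. Their summed signal was 2506911 and 1446530.0 on the NTG arrays against 1607329 and 1458945 on the MCK-PPARb arrays, so the groups overlapped. Mylk2 (-0.78) and Pygm (-0.58) had the smallest p of this list. Of 10 slow fibre markers, 0 passed, and limma gave 7 an unadjusted p under 0.05, where 10.9% of all genes had one, with a median of 0.89. Of these 7, 6 were higher, among them Myl2 (2.83-fold) and Casq2 (1.60 on the log2 scale), and Mb, which encodes myoglobin, was lower (-0.53 on the log2 scale). Their summed signal, of which Mb was the largest term on the NTG arrays, was 171882 and 212662 against 232756 and 266742.

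Gpd1 is also abundant in fat. Of 9 adipocyte markers, 7 had a probe set and 4 were tested. Of these 0 passed, and limma gave 2 an unadjusted p under 0.05, where 10.9% of all genes had one. The median of the 4 was 0.85. The summed signal of the 7 with a probe set was 27436 and 49225 on the NTG arrays against 49461 and 55521 on the MCK-PPARb arrays. Lpl, which muscle also expresses, made up most of that sum, with 17825 and 34803 against 36927 and 43087. Adipoq was at 1.03, Retn at 1.02 and Fabp4 at -0.23, and Lep, Cidec and Pparg lay below the filter. Of 7 Schwann cell and nerve markers, 4 had a probe set and 2 were tested, Mbp at 0.96 and Pmp22 at 0.67. Neither passed, and limma gave both an unadjusted p under 0.05, where 10.9% of all genes had one. The means of Ncam1 and S100b lay below the filter. Ncam1 read 296.5 and 259.5 on the NTG arrays against 537.5 and 677.8 on the MCK-PPARb arrays, and S100b 150.3 and 128.5 against 220.9 and 23.9. Sums over the 4 were 17331 and 19224 against 29546 and 33660.0. Medians were -0.041 for 6 endothelial, 0.12 for 5 tested macrophage and 0.17 for 1 tested erythroid marker, and 0 of these passed. Limma gave 1 of the 5 macrophage markers an unadjusted p under 0.05, where 10.9% of all genes had one.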

How the data were processed

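Gastrocnemius RNA was measured on 4 arrays, 2 per group, each taken as 1 mouse. The authors deposited linear signal intensities, 1 per probe set, scaled to a common level. The submitters' processing notes name MAS5 and GCOS (versions: not given in the sources used here). Of 22690 probe sets, 64 controls were left out, 20380 carried 1 gene symbol, 691 several and 1555 none. For 20351 the symbol was updated by gene number.

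The deposited signals were turned into log2 values without a pseudocount. Probe sets with a mean above the median were kept (11313). The comparison used limma 3.58.1 under R 4.3.3 (lmFit, eBayes with an intensity trend, tests in both directions, Benjamini-Hochberg over kept probe sets), with 2 residual and 5.38 prior degrees of freedom. The design held no block. Intervals are 95% moderated intervals. The fit was tested on simulated data with independent errors on each array, which does not bear on errors shared between arrays. A gene was called at an adjusted p under 0.05.

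Named genes were all shuttle genes, the called members of each pathway list or else the 2 of smallest p, marker lists by their sums, 8 genes always reported where measured, and the 5 closest to Gpd2. Further list members and single markers were named after their values were seen. The members, lists and tests were chosen with earlier results of these data known. Lists are described by counts and medians, with no list test. The alternatives changed the scaling (quantile, median centring), the pseudocount (33.9), the filter (none, 75th percentile), the prior (no trend, robust), the design (replicate block, 1 array left out) and the probe sets (averaged per gene, none with the suffix _s_at or _x_at).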

Additional observations from a re-analysis of the deposited data

How the results depend on the processing

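The fall of Gpd2 kept its direction and passed in all 14 alternatives, from -2.32 to -2.17 with an adjusted p of 4.8e-05 to 0.0357 in limma. No malate-aspartate gene passed in any of the 14. Few genes of any kind passed (0.731% of those tested in the fit reported above), so nothing is read from that count. Gpd1 stayed lower, from -1.07 to -0.74, with an adjusted p of 0.0148 to 0.497. It passed with the replicate block alone (-0.946, adjusted p = 0.0148), where 2 glycerol phosphate genes were called lower. Beyond the shuttles the block also brought Me1 (0.0164), Slc16a3 (0.0117), Ldhb (0.0440) and Gpt2 (0.00616) past the threshold. The deviations of same-numbered arrays correlated at 0.276 across probe sets, a hint from the data at a shared effect of the number. The labels do not say that a number links mice, and there are only 2 numbers, so the fit without the block was kept. With the replicate block 218 genes were called, against 50 without it and 14 without the intensity trend, and 27 to 103 with 1 array left out. The cause was not tested. Median centring lowered the median difference of all kept probe sets by 0.106 and put the shuttle medians at -1.69 and -0.286. The glycerol phosphate median was -1.48 when probe sets were averaged per gene and -1.67 to -1.49 with 1 array left out. The malate-aspartate median was -0.257 to -0.0678 with 1 array left out, the higher value without NTG replicate 1. Got2 changed sign, to 0.0227 with quantile normalization, and ran from -0.189 to 0.141 with 1 array left out, above 0 without NTG replicate 1 (0.141) or MCK-PPARb replicate 1 (0.00804). Slc25a13 was tested with no filter alone (0.30, adjusted p = 0.980). Detection calls were not used here, so a low signal such as that of Slc25a13 has no stated background to be set against.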

Other observations

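Gpd2 is a known target of thyroid hormone in liver. Of 9 other listed genes that respond to this hormone or act in its signalling, 8 were tested and 0 passed, with a median of -0.24. Limma gave 1 an unadjusted p under 0.05, where 10.9% of all genes had one. That gene was Hr, the hairless corepressor, which read 3343 and 2186 on the NTG arrays against 839 and 453 on the MCK-PPARb arrays (-2.13 ± 0.37, adjusted p = 0.0693). Hr passed without NTG replicate 2 (0.0297), without MCK-PPARb replicate 1 (0.0212), with quantile normalization (0.0481), with median centring (0.00482) and with a replicate block (0.000223), and its second probe set was at -1.03 with overlapping groups. Thra, a thyroid hormone receptor gene, was at 0.51 (adjusted p = 0.475; 0.31 to 0.71 with 1 array left out) and Atp2a1, the fast calcium pump, at -0.32.

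The smaller ratio of the second Gpd1 probe set, 2.74-fold, was taken as a cutoff, so this probe set meets it by construction. Counted were the probe sets whose replicate 1 differed from replicate 2 in the same direction in both groups by at least that much. They numbered 47 of 11313 kept probe sets, or 0.415%, and replicate 1 was the higher in 46 of them. The exception was a probe set of Tob2. Probe sets of Nfic, a transcription factor gene, stood at the top, with ratios of 10.9 and 9.40 for 1 of them; Nfic and Tob2 were named after their values were seen. The first Gpd1 probe set had ratios of 1.05 and 1.19.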
